A study of Homo sapiens with 94 samples.

Results

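The genes described here are 8 of the 20257 gene entries measured in NCI-H226 xenograft tumors, and they comprise the tumor suppressors most often lost in mesothelioma together with the p53 axis. They are CDKN2A, CDKN2B, MTAP, BAP1, CDKN1A, MDM2, SETD2 and RB1. Members were taken by gene symbol, and each had 1 entry in the table. The established line NCI-H226 came from a human malignant pleural mesothelioma (MPM) and has a deletion of NF2, a gene of the Hippo pathway. The cells were grown as subcutaneous tumors in young adult female SCID mice, which lack functional T and B cells, and all groups share this line and this host. Mice received a single oral dose of K-975, a covalent inhibitor of the TEAD transcription factors that blocks their palmitoylation, at 30, 100 or 200 mg/kg, or vehicle (an ethanol, Solutol and glucose solution), or were left untreated. The 94 tumors form 19 groups in 3 studies, named here by sampling time (1 h, 3-6 h or 24 h after dosing). The labels state the time only for the untreated tumors, and the other groups take it from the study code they share with them. Groups held 5 tumors, except vehicle at 24 h with 4, and at 3-6 h vehicle and each dose had 2 cage groups whose exact time (3 h or 6 h) the labels do not give. The dosing volume was 20 mL/kg for vehicle and the top dose but 10 mL/kg for the lower doses. In the 1 h and 24 h studies each group was a single cage, and there an effect of the cage cannot be told apart from that of the treatment.

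CDKN2A, CDKN2B and MTAP lie side by side on chromosome 9. CDKN2A encodes p16INK4a, an inhibitor of CDK4 and CDK6, and p14ARF, which restrains MDM2. CDKN2B encodes p15INK4b, a further inhibitor of the same kinases, and MTAP is the enzyme that salvages methionine from methylthioadenosine and is often lost with its neighbors. RB1 encodes the protein that these kinases phosphorylate and that holds back E2F transcription factors. MDM2 is the ubiquitin ligase of p53 and is itself induced by p53, as is CDKN1A, which encodes the CDK inhibitor p21. BAP1 is a deubiquitinase of histone H2A, and SETD2 is the methyltransferase that trimethylates lysine 36 of histone H3. Loss of the chromosome 9 block, of BAP1 and of NF2 are the common lesions of MPM. An RNA value cannot tell a deleted gene from one that is not transcribed, not captured or not estimated.

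Promoters were searched on both strands for the TEAD motif GGAATG and for the p53 response element, read here as a pair of abutting decamers (10 bases each) with at most 1 mismatch each to the p53 consensus. RefSeq windows (GRCh38.p14) of 300 bases were found for 7 of the 8 genes, 11 windows in all. The windows of RB1 and CDKN1A lie inside the gene, as do 1 of CDKN2A and those before the downstream start of MDM2. The TEAD motif was present in 14% of 35116 windows of all genes and, among these members, in that of CDKN2B alone. The p53 pair was present in 0.387% of all windows and, among these members, only in those before the downstream start of MDM2. The stretches outside annotated exons are shown because they carry these matches, with the matched bases in capitals. The first runs over chr9:22009364-22009555 on the minus strand and the second over chr12:68808767-68809001 on the plus strand. The TEAD match of CDKN2B is on the opposite strand and so reads in reverse complement. A match describes the sequence and is not evidence of binding.
CDKN2B: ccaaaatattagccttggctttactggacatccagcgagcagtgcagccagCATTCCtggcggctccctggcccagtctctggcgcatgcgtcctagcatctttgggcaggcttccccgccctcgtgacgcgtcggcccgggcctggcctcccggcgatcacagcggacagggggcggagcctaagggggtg
MDM2: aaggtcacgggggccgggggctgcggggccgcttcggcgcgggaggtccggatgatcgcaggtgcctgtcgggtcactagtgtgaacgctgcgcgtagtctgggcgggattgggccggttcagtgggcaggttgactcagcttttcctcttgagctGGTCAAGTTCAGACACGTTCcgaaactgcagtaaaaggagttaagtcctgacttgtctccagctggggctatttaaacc

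Libraries were made from total RNA with hybridization capture, and differences between genes in capture enter their levels. Values were read as FPKM, fragments scaled to transcript length and to the size of the library, a unit the labels do not name, and read depth is unknown. In 91 libraries 11299 to 11620 genes reached an FPKM of 1. The other 3, from 3 different K-975 groups (1 h at 200, 24 h at 100 and 24 h at 30 mg/kg), reached it in 695 to 8497 genes and were left out, so results below are those of 91 libraries unless stated. All 11 mesothelial markers had a median of at least 1, and their sum was 2529 to 4804 FPKM, whereas lymphocyte, skeletal muscle, adipocyte and erythroid lists summed to at most 8.24, 0.18, 0.495 and 1.02. The endothelial list summed to 25.9 to 138 FPKM, mostly from KDR (median 63.9, with PECAM1 at 0 in 79 libraries), the fibroblast list to 22.2 to 47.2, mostly from PDGFRB (median 32.0), and the keratinocyte list to 1.21 to 11.7. Host cells in these tumors are of the mouse, whereas the genome named for the processing is human, and the treatment of mouse reads is not given. These lists thus cannot tell host RNA from tumor RNA, and the part of such cells in the results was not tested. The macrophage list (43.1 to 265 FPKM) rested on CD68, with C1QA and C1QB at 0 in every library. POLR2A, a gene that every cell uses, was listed at 0 in 37 of 91 libraries. Other such genes, chosen after the values were seen, held no zero in these libraries (EEF1A1, ACTB, GAPDH, RPLP0, PPIA, TBP and HPRT1). Because of POLR2A, a zero in this table is given only as a listed value. Fewer cells of a type and less RNA per cell cannot be told apart in such bulk samples.

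Of the 8 genes, BAP1 alone was undetected in all tumors. It was listed at 0 in each of the 91 libraries, and in each of the 94 when the shallow ones were counted. MDM2 was by far the highest member, with a lowest value of 144, a median of 183 and a highest value of 249 FPKM, above 98.0% of the genes in the table. CDKN1A ranged from 40.7 to 88.2 around a median of 64.5 FPKM. SETD2 (19.4 to 39.0, median 28.8 FPKM) and RB1 (12.6 to 23.6, median 17.8 FPKM) were detected in every library. CDKN2B (5.98 to 24.4, median 14.6 FPKM) and MTAP (4.33 to 24.6, median 9.29 FPKM) were likewise present in every tumor. CDKN2A was at the edge of detection, with a median of 1.18 and a maximum of 4.25 FPKM, and was listed at 0 in 17 libraries.

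**Figure D1:**
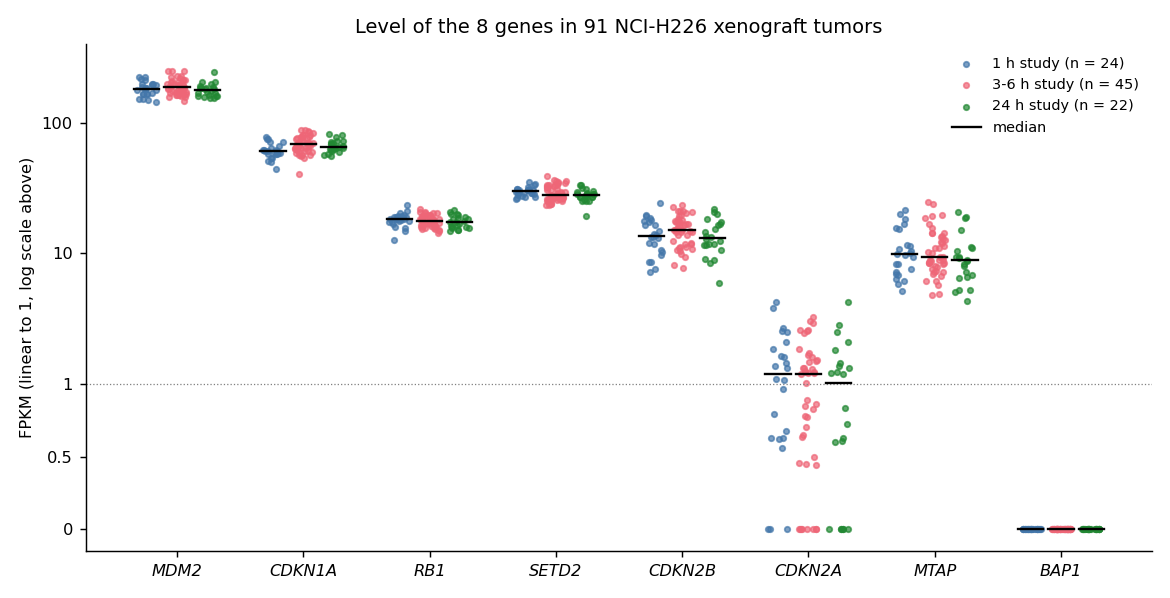
FPKM of the 8 genes (vertical axis, linear up to 1 and logarithmic above) in each of 91 tumors, colored by study, with the median of each study as a bar. BAP1 lies at 0 throughout, CDKN2A straddles 1 (dotted line) with 17 tumors at 0, and MDM2 stays between 144 and 249.

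The members differed in how tightly they were held. RB1 had a coefficient of variation of 11.0% over the 91 tumors, SETD2 12%, MDM2 13.1% and CDKN1A 14.5%. CDKN2B varied by 28.4%, MTAP by 43.8% with a 5.67-fold span between its lowest and highest tumor, and CDKN2A by 81.9%. For CDKN2A no value lay between 0 and 0.44 FPKM, 25 tumors lay above 0 but under 1, and 17 were at 2 or more. When the 15 treatment arms were ordered by mean, no 2 neighbors in the order differed by more than the larger of their SDs for any member. Sorting makes such steps small, so they do not compare the highest arm with the lowest. The highest and lowest arm means were 2.57 ± 1.501 (SD, n = 5, vehicle 1 h) and 0.39 ± 0.453 FPKM (n = 4, 100 mg/kg 24 h) for CDKN2A, and 17.7 ± 4.07 (n = 5, untreated 1 h) and 10.8 ± 2.83 FPKM (n = 4, vehicle 24 h) for CDKN2B. For MDM2 they were 202 ± 25.5 (n = 5, 100 mg/kg 1 h) and 158 ± 12.9 FPKM (n = 5, untreated 1 h).

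BAP1 lies at chr3:52401013-52410350 on the minus strand (GRCh38, as in the table). Its neighbor PHF7, a gene mainly of the testis that starts 306 bases beyond, was also at 0 in all 91 libraries. SEMA3G, the next gene on that side, was at 0 in 86 libraries and reached at most 0.926 FPKM. The nearest genes with a median of at least 1 were DNAH1 on one side (5.17 FPKM) and TNNC1 (1.42 FPKM) on the other, 50.6 kb apart, followed by NISCH at 24.7 FPKM. Within 2 Mb of BAP1, 41 of 66 other genes had a median of at least 1 and 5 were at 0 throughout. NF2, which is deleted in this line, was at 0 in 80 libraries and never above 0.244 FPKM. Its neighbors NIPSNAP1 (8.33), THOC5 (15.9) and ZMAT5 (9.98 FPKM) were detected in every library, and CABP7 was at 0 in all. BAP1 was at 0, as was PHF7 beside it, in the 50.6 kb between genes with a median of at least 1. Of the 19717 protein coding genes, 14.1% were at 0 in every library and 29.3% stayed under 1. Among 112 other genes of the related pathways only GDF15, a secreted p53 target, was at 0 in all 91. Whether BAP1 is deleted in these tumors was not tested.

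**Figure D2:**
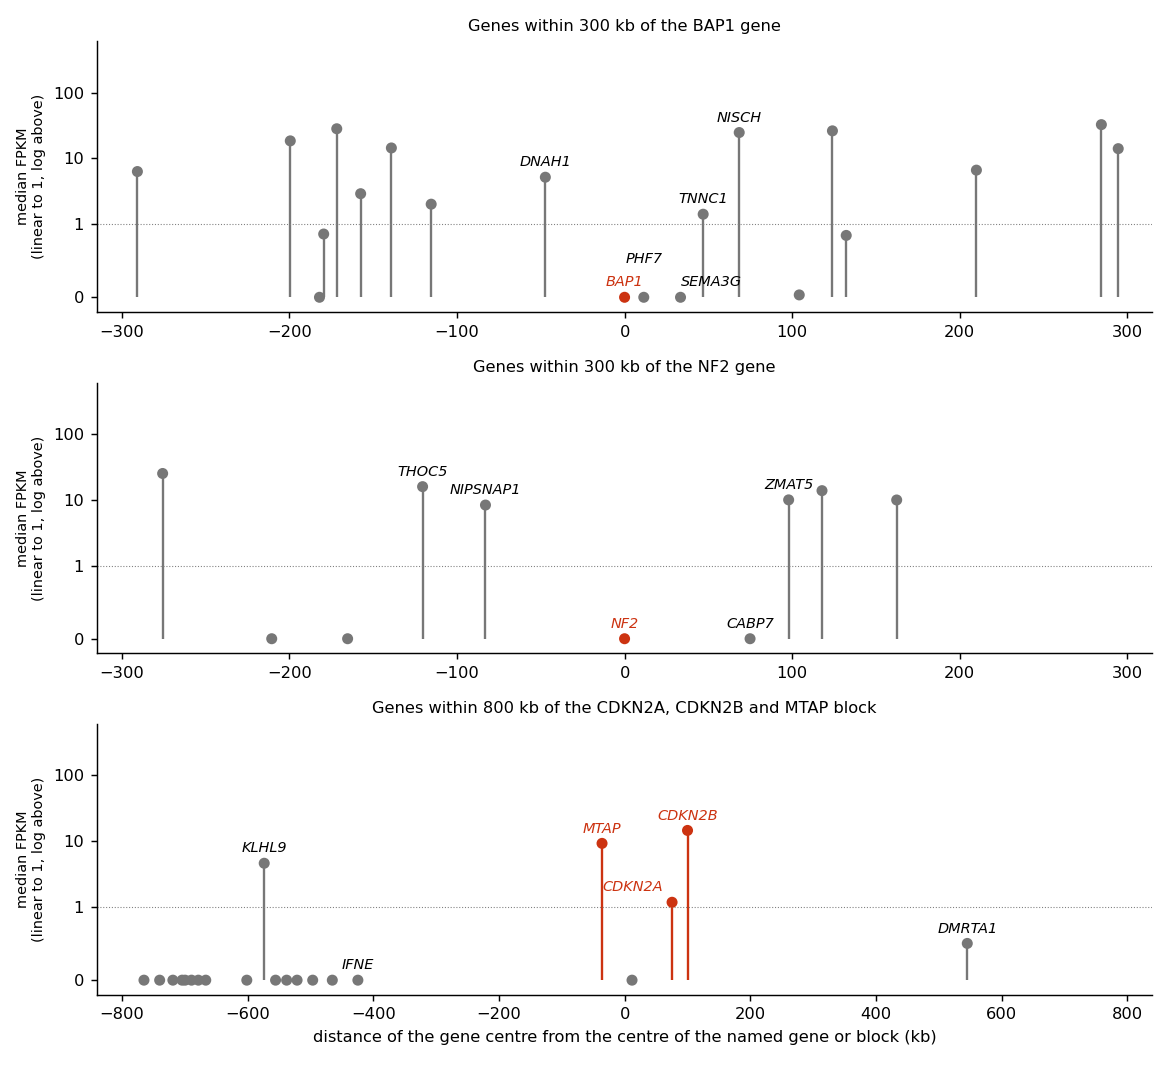
Median FPKM over 91 tumors (vertical axis, linear up to 1 and logarithmic above) of the genes around BAP1, around NF2 and around the CDKN2A, CDKN2B and MTAP block, against distance in kb. The genes named in each title are red and others grey. BAP1 (0) lies beside PHF7 (0), with NISCH (24.7) farther off, and NF2 (0) lies near THOC5 (15.9). MTAP, CDKN2A and CDKN2B stand above the interferon genes at 0 on their left (the unlabelled point between them is the overlapping read-through entry).

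The chromosome 9 block lay among genes that were mostly not detected. MTAP (chr9:21802543-21937651, plus strand), CDKN2A (chr9:21967753-21995301, minus strand) and CDKN2B (chr9:22002903-22009363, minus strand) were detected, CDKN2A not in every library. Of the 23 other genes within 2 Mb, 3 had a median of at least 1 FPKM, 16 never reached 1 and 13 were at 0 throughout. These 13 are interferon genes, a cluster that is silent in most cells without infection. The nearest gene on that side with a median of at least 1 was KLHL9 (4.63 FPKM), and beyond it FOCAD was at 6.08. DMRTA1 on the other side had a median of 0.503 FPKM. MTAP overlaps a read-through entry that spans the block (median 4.1e-06, highest 2.74 FPKM), and antisense transcripts overlap CDKN2A and CDKN2B. The strand setting of the counting is not given in the sources used here, so reads of overlapping genes cannot be separated.

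None of the 7 detected members passed the threshold at any dose, an adjusted p of 0.05 in limma over all 12995 tested genes. BAP1 could not be tested. At 24 h and 200 mg/kg 0 of 7 members were called, where 7.23% of all tested genes (939) were called, and 2 of 7 had an unadjusted p under 0.05, as did 21.9% of all genes. At 24 h the called share of all genes was 1.02% at 100 mg/kg and 0.0308% at 30 mg/kg, at 3-6 h it was 0.0693% (0.0539% lower), 0.416% and 0.0154% at 200, 100 and 30 mg/kg, and at 1 h it was 0% at 200 and 30 and 0.0077% at 100 mg/kg, with 0 of 7 members in each. Over the 63 tests of a dose against vehicle, 6 had an unadjusted p under 0.05. That level was reached by 3.35%, 5% and 4.4% of all genes at 200, 100 and 30 mg/kg at 1 h, by 7.21%, 10.2% and 7.03% at 3-6 h, and by 14.1% and 9.97% at 100 and 30 mg/kg at 24 h. Each difference below is one of log2(FPKM + 1), so that of a low gene is understated, and the doses of a study were all compared with the same vehicle tumors.

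CDKN2A at 24 h came nearest to a call. The 4 vehicle tumors had 1.18, 0.603, 0 and 0 FPKM, and the 5 tumors at 200 mg/kg had 1.21, 1.83, 2.11, 4.25 and 1.33. The treated tumors were thus all above the vehicle tumors, the lowest by a small margin, and 4.2% of all tested genes were also higher without overlap in this comparison. At 100 mg/kg the values were 0, 0.838, 0 and 0.723 FPKM, and at 30 mg/kg 0, 0.609, 0.631 and 1.45, both overlapping vehicle. The log2 difference at 200 mg/kg was 1.13 (SE 0.41, 95% interval 0.31 to 1.94, limma adjusted p = 0.0758), and the trend with dose was 0.51 per 100 mg/kg (SE 0.19, adjusted p = 0.0922, with 5.58% of all genes called). The untreated tumors of the same study had 2.80, 1.23, 0, 1.38 and 2.51 FPKM and overlapped those at 200 mg/kg. Against them the log2 difference was 0.35 (adjusted p = 0.638). The vehicle tumors were 0.78 below untreated ones on the log2 scale (unadjusted p = 0.0612, adjusted p = 1).

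At 1 h CDKN2A pointed the other way. Vehicle tumors had 2.69, 4.25, 0.795, 1.32 and 3.78 FPKM, and those at 200 mg/kg 0.561, 0, 0.963 and 2.56. The groups overlapped, with a log2 difference of -0.86 at 200 mg/kg (SE 0.41, adjusted p = 1) and of -0.77 at 30 mg/kg (adjusted p = 1). Here the vehicle group was the high one, 0.83 above untreated tumors on the log2 scale (unadjusted p = 0.0355, adjusted p = 1). The effect of 200 mg/kg at 24 h minus that at 1 h was 1.98 (SE 0.58, 95% interval 0.83 to 3.14, adjusted p = 0.0831), where 0.569% of genes were called. At 3-6 h the difference was 0.023 with an interval of -0.52 to 0.57.

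CDKN2B, the neighbor that inhibits the same kinases, also had its largest difference at 24 h. The vehicle tumors of that study had the lowest mean of the 15 arms (10.8 FPKM). Vehicle tumors had 11.6, 8.38, 14.5 and 8.82 FPKM, and those at 200 mg/kg 20.7, 9.01, 19.9, 22 and 13.4. Of the 5 treated tumors 3 lay above all vehicle tumors, and 9.01 and 13.4 fell within the vehicle range. The log2 difference was 0.57 (SE 0.26, 95% interval 0.062 to 1.078, adjusted p = 0.167). Over the 9 fits that left out 1 tumor it ranged from 0.47 to 0.77 (limma adjusted p from 0.0423 to 0.365). It passed the threshold in 1 of these fits, the one without the tumor of 9.01 FPKM (replicate 2). At 100 mg/kg the tumors had 10.6, 12.5, 18.2 and 12.8 FPKM and at 30 mg/kg 17.4, 13.5, 16.5 and 11.8, with differences of 0.30 and 0.43 whose intervals include 0. Compared with 3-6 h, the effect of this dose at 24 h was larger by 0.77 (SE 0.31, adjusted p = 0.174), beside 1.7% of all genes called. The untreated tumors at 24 h were 0.54 below those at 1 h (unadjusted p = 0.0269, adjusted p = 0.446), where 0.0077% of genes were called.

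**Figure D3:**
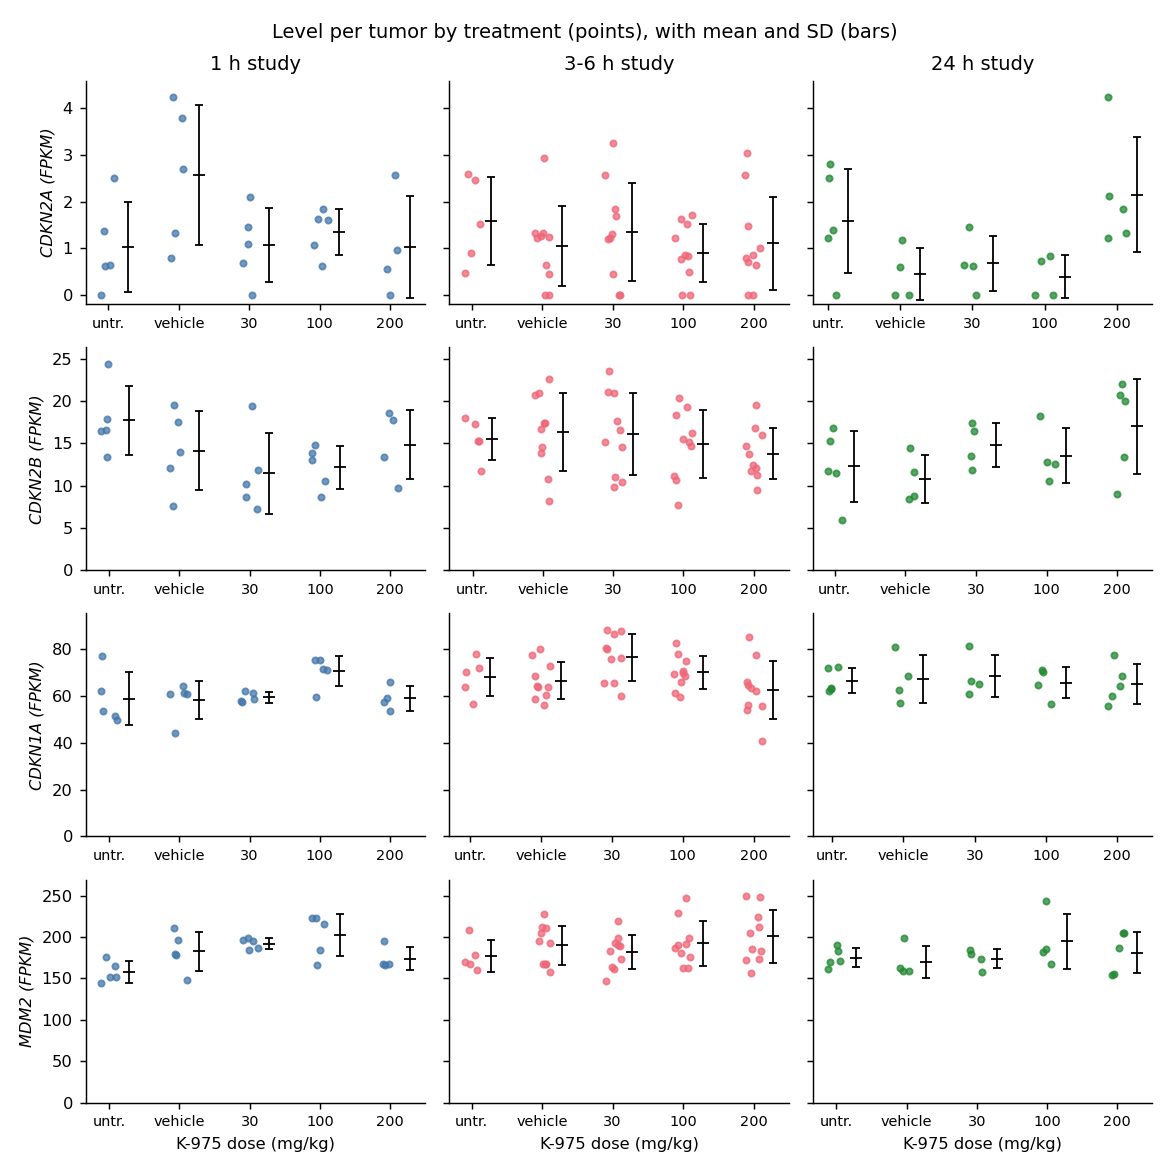
FPKM per tumor (points) of CDKN2A, CDKN2B, CDKN1A and MDM2 for untreated (untr.), vehicle and K-975 at 30, 100 and 200 mg/kg in the 3 studies, with the mean and SD as bars. At 24 h the 5 tumors at 200 mg/kg hold 1.21 to 4.25 FPKM of CDKN2A against 0 to 1.18 in vehicle, while CDKN1A and MDM2 overlap across all doses.

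MTAP, the salvage enzyme of the block, had wide intervals. At 200 mg/kg its log2 differences from vehicle were -0.32, 0.13 and 0.47 at 1 h, 3-6 h and 24 h, and the interval of the last ran from -0.27 to 1.20. At 24 h the vehicle tumors had a mean of 7.38 ± 2.79 FPKM (n = 4) and those at 200 mg/kg 11.4 ± 6.46 (n = 5), with untreated tumors at 12.4 ± 6.39 (n = 5). No dose gave MTAP an unadjusted p under 0.05.

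The p53 targets among the members gave small differences. For MDM2 the 9 differences of a dose from vehicle lay between -0.064 and 0.19 on the log2 scale, and their 95% intervals together spanned -0.28 to 0.42. At 24 h MDM2 had 163, 159, 199 and 159 FPKM in vehicle and 156, 205, 154, 205 and 187 at 200 mg/kg, which overlap. For CDKN1A the 9 differences lay between -0.11 and 0.28, within intervals of -0.29 to 0.51. At 24 h CDKN1A had 62.6, 68.5, 80.9 and 57.0 FPKM in vehicle and 64.1, 59.8, 55.7, 77.5 and 68.4 at 200 mg/kg, with a difference of -0.043. The highest CDKN1A difference was at 1 h and 100 mg/kg, where tumors had 71.4, 59.7, 75.2, 70.9 and 75.5 FPKM against 60.6, 61.4, 64.4, 60.8 and 44.0 in vehicle. It came to 0.28 (SE 0.11, unadjusted p = 0.0172, adjusted p = 0.95), and the difference at 200 mg/kg in that study was 0.024. At 3-6 h CDKN1A was 0.20 above vehicle at 30 mg/kg (adjusted p = 0.576), and its trend with dose was -0.09 per 100 mg/kg (adjusted p = 0.491). This trend called 0.215% of all genes, 0.0385% rising, with 7.8% at an unadjusted p under 0.05, and the trend at 1 h called 0% with 3.4% at that level.

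RB1 and SETD2, the most evenly expressed members, also gave small differences. Their 18 differences of a dose from vehicle lay between -0.14 and 0.16 on the log2 scale, and no 95% bound lay outside -0.36 to 0.37. At 24 h RB1 had a mean of 18.5 ± 2.87 FPKM in vehicle (n = 4) and 16.6 ± 1.32 at 200 mg/kg (n = 5). SETD2 had 28.7 ± 3.55 in vehicle (n = 4) and 28.7 ± 2.80 FPKM at 200 mg/kg (n = 5).

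**Figure D4:**
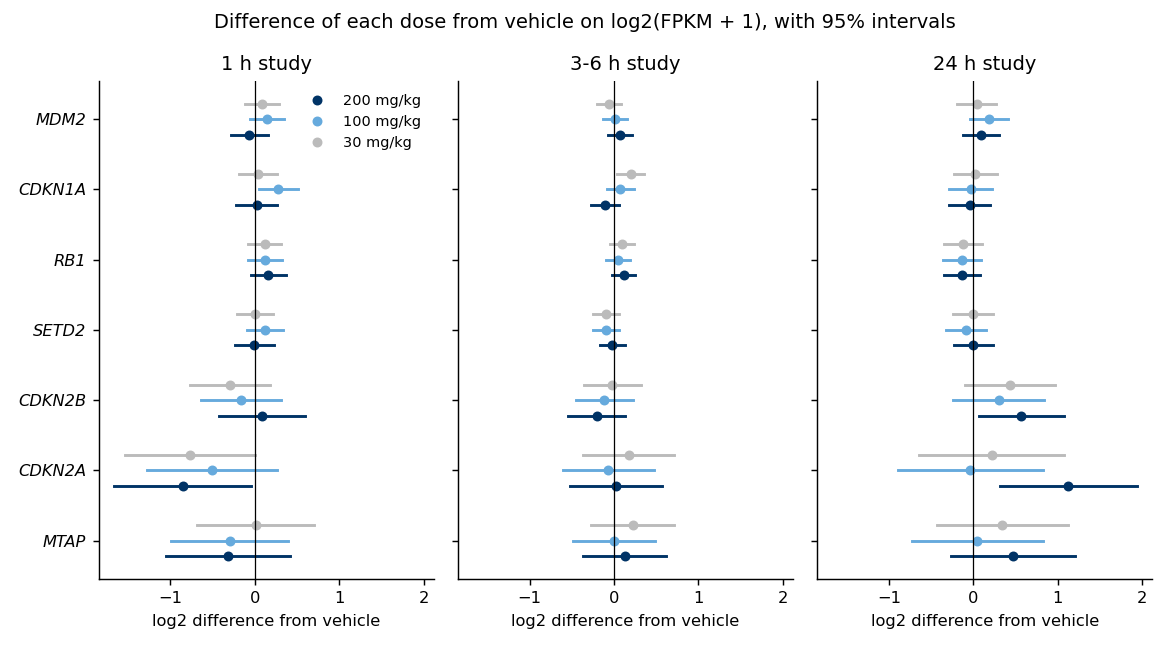
Difference of each K-975 dose from vehicle on the log2(FPKM + 1) scale (points) with 95% intervals (lines) for the 7 detected genes in the 3 studies, colored by dose. RB1 and SETD2 stay within -0.36 and 0.37, and the interval of CDKN2A at 200 mg/kg and 24 h (0.31 to 1.94) lies farthest from 0.

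The 2 cage groups of a dose at 3-6 h did not always lie together. MDM2 in cage group 5 (200 mg/kg) had 224, 249, 248, 185 and 212 FPKM, and in cage group 4 of the same dose 173, 157, 183, 205 and 173. Against all vehicle tumors of the study these were 0.23 higher (unadjusted p = 0.00952, adjusted p = 0.291) and 0.09 lower. CDKN1A in cage group 4 had 55.6, 63.3, 62.0, 56.2 and 40.7 FPKM, 0.26 below vehicle (unadjusted p = 0.00951, adjusted p = 0.894), and in cage group 5 it was 0.05 above. In cage group 9 (30 mg/kg) CDKN1A was 0.25 above vehicle (adjusted p = 0.415). None of the 42 cage tests of members was called, where the called share of all genes was 0.277% in cage group 5, 0.0077% in cage group 4, 0.0308% in cage group 9, 1.32% in cage group 7 and 0% in cage groups 6 and 8. Cage and sampling time cannot be told apart here. Vehicle against untreated tumors gave 0 of 7 members in each study, and 0% of all genes, with 1 of 21 member tests at an unadjusted p under 0.05, a level that 4.73%, 4.82% and 4.19% of all genes reached at 1 h, 3-6 h and 24 h. Between untreated tumors of different studies 0 of 7 members were called as well, although 4.2% of all genes differed between 24 h and 3-6 h and 0.1% between 3-6 h and 1 h.

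Across the 91 tumors the members did not vary as a block. MDM2 and CDKN1A, both induced by p53, had a Pearson correlation of 0.31 on the log2 scale. CDKN2B correlated at 0.21 with MTAP and at -0.042 with CDKN2A, and MTAP at 0.10 with CDKN2A, although the 3 genes adjoin. The genes most like MDM2 were PSMB9 (r = 0.63), PMAIP1 (0.54), a proapoptotic p53 target also known as NOXA, and CDCA2 (0.53). Those most like CDKN2B were TRIM16 (0.67), MYRF (0.63) and TIMP2 (0.62), an inhibitor of matrix metalloproteinases. For CDKN1A the highest was COX8A (0.45), for SETD2 TUBB2B (0.47), for RB1 EPB41L2 (0.44), for CDKN2A INPP4B (0.41) and for MTAP TMEM106C (0.39). These correlations describe tumors that share studies and treatments, and CDKN2B also correlated at 0.34 with the number of genes detected per library.

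The genes around these members were read through 7 lists at 200 mg/kg and 24 h, beside 3.69% of all tested genes called higher and 3.53% called lower and a median difference of 0.04 over all genes. Of 26 tested p53 targets other than the members, 1 rose and 1 fell, with a median log2 difference of 0.14. XPC, a DNA damage sensor of nucleotide excision repair, had 15.6 to 23.4 FPKM in vehicle and 22.2 to 33.2 at 200 mg/kg, a rise of 0.51 (SE 0.12, limma adjusted p = 0.00332), and 4 of 5 treated tumors lay above all vehicle tumors. GADD45A, a stress gene of growth arrest, fell by 0.56 (SE 0.17, adjusted p = 0.0365) from a mean of 59.6 ± 13.6 (n = 4) to 41.8 ± 16.4 FPKM (n = 5), and the groups overlapped. None of the 12 genes in the list of p53 regulators was called, and 2 had an unadjusted p under 0.05.

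On the RB side, 1 of 19 genes rose and 1 fell, and the median was -0.03. CCND2, a cyclin that activates CDK4 and CDK6, was at 4.26 to 7.24 FPKM in vehicle and 6.55 to 19.6 at 200 mg/kg (difference 1.31, SE 0.41, adjusted p = 0.0373), but untreated tumors reached 38.9, and against them the difference was 0.18 (adjusted p = 0.828). CCNE2, the cyclin of CDK2 and an E2F target, fell by 0.99 (SE 0.30, adjusted p = 0.0289), with 2.01 to 4.08 FPKM in the 5 treated tumors, all below the 5.63 to 10.0 of vehicle. E2F1 fell with dose by 0.33 per 100 mg/kg (SE 0.089, limma adjusted p = 0.0163). At 200 mg/kg it lay below all vehicle tumors in 5 of 5, beside 3.22% of all genes that were lower without overlap. Untreated tumors of that study had 3.52 to 6.75 FPKM of E2F1 and overlapped the 2.78 to 4.58 at 200 mg/kg. The mean at 30 mg/kg (6.27 FPKM) was above that of vehicle (5.73). At 200 mg/kg alone E2F1 was not called (difference -0.56, adjusted p = 0.0627), and its trend lost the call without replicate 3 or replicate 4 of that dose (adjusted p up to 0.0605). At 24 h the trend called 2.59% of all genes higher and 2.99% lower.

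Of the 15 genes of methionine salvage, polyamine synthesis and PRMT5, processes linked to MTAP, 3 fell and none rose, with a median of -0.28. SRM, spermidine synthase, fell by 0.61 (SE 0.13, adjusted p = 0.00188) from 130 to 164 FPKM in vehicle to 84.8 to 123 at 200 mg/kg, without overlap. SMS, spermine synthase, fell by 0.55 (SE 0.13, limma adjusted p = 0.00436), also with 5 of 5 treated tumors below all vehicle tumors. Untreated tumors had 86.3 to 116 FPKM of SMS and just overlapped the 49.0 to 86.7 at 200 mg/kg. PRMT5, the arginine methyltransferase that methylthioadenosine inhibits, fell by 0.42 (SE 0.14, adjusted p = 0.0499), at the threshold. SRM and SMS also fell with dose, by 0.27 and 0.24 per 100 mg/kg, but with all 94 libraries both trends were 0.026 and not called. The SMS trend also lost the call without replicate 1 of 200 mg/kg (adjusted p = 0.078). MAT2A, which makes S-adenosylmethionine, was the highest gene of the list (median 695 FPKM) and was not called.

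None of 9 tested partners of BAP1 was called at 200 mg/kg and 24 h, nor had any an unadjusted p under 0.05. ASXL1 (median 43.6 FPKM) and HCFC1 (67.7), subunits and binding partners of the BAP1 complex, and OGT (100.5) were expressed in every tumor although BAP1 was at 0. ASXL2 (median 0.031 FPKM, at 0 in 44 libraries) and ASXL3 (at 0 in 89 libraries) of the same list did not pass the filter. Of the 10 genes of H3K36 methylation none was called at 200 mg/kg, 3 had an unadjusted p under 0.05, and at 100 mg/kg NSD2, which dimethylates the same residue, fell by 0.48 (SE 0.13, adjusted p = 0.0482), a call lost in 6 of the 8 fits that left out 1 tumor (adjusted p up to 0.278). Of 17 other suppressors of mesothelioma 1 was called at 200 mg/kg. ARID2, a subunit of a SWI/SNF complex, rose by 0.37 (SE 0.11, adjusted p = 0.0206), and LATS2, the Hippo kinase, fell with dose by 0.32 per 100 mg/kg (SE 0.084, adjusted p = 0.0133). The LATS2 mean at 30 mg/kg (31.9 FPKM) was above that of vehicle (27.2), and those at 100 and 200 mg/kg were 21.6 and 18.75. At 200 mg/kg alone LATS2 was not called (adjusted p = 0.074), and its trend lost the call without replicate 1 or replicate 4 of that dose (adjusted p up to 0.0594). Of the 8 calls at 200 mg/kg, those of SRM, SMS and XPC held when any 1 of the 9 tumors was left out, and the others were lost in 3 to 7 of the 9 fits. With all 94 libraries none of the 8 passed. The 3 shallow libraries are in neither of the groups compared and enter these calls only through the fit shared by all groups.

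**Figure D5:**
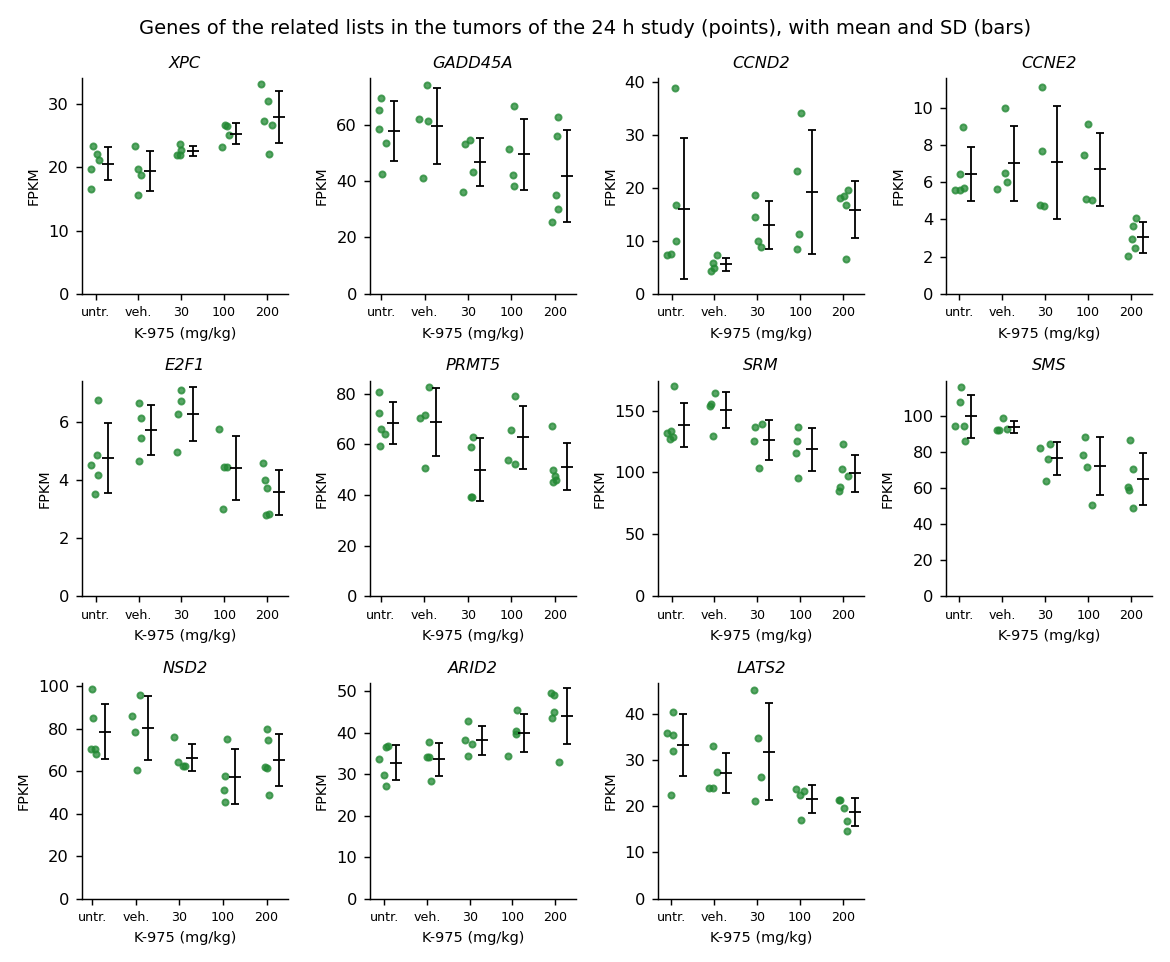
FPKM per tumor (points) in the 24 h study of the 11 list genes called against vehicle or with dose, for untreated (untr.), vehicle (veh.) and K-975 at 30, 100 and 200 mg/kg, with the mean and SD as bars. SRM and SMS at 200 mg/kg lie below all vehicle tumors, as does CCNE2 (2.01 to 4.08 against 5.63 to 10.0), while GADD45A and CCND2 overlap between groups or with untreated tumors.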

How the data were processed

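RNA-seq was performed on 94 tumors. The authors deposited 1 column of values per library, read here as FPKM because they are not whole numbers and do not sum to a fixed total, since the labels do not name the unit. The submitters' processing notes name STAR and GRCh38, and the quantifier, the annotation, the strand setting and the treatment of mouse reads are not given in the sources used here. Very small values occur, so whole reads could not be recovered, and no count test or sampling interval was possible. The table had 20555 entries, of which the first of each gene ID was kept (298 left out), and 32 blank cells were read as 0. Its starts are counted from 0 and were raised by 1, after which 15645 loci equalled those of GENCODE 29.

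Groups came from the labels. Replicates are tumors of separate mice. Libraries with under 10000 genes at FPKM 1 were left out (3), a limit known from earlier results. limma 3.58.1 (R 4.3.3, trend and robust) was fitted to log2(FPKM + 1) of the 12995 genes at FPKM 1 or more in at least 4 libraries, with 1 coefficient per group and Benjamini-Hochberg adjustment per comparison, and was tested on simulated data. Means of both cage groups were compared at 3-6 h. Alternatives were all libraries, pseudocounts of 0.1 and 0.5, no filter, quantile normalization, only the groups compared, untreated tumors in place of vehicle, summed entries and each tumor left out. The members and gene lists were chosen with earlier results of these data known. Named genes are, of each list, those called for a dose or trend (at most 4 per comparison) and up to 2 of high level, for each member the 3 of highest correlation, and the nearest neighbors of the chromosome 9 block, BAP1 and NF2. ASXL1, GDF15, FOCAD, TNNC1 and NISCH were named after their values were seen.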

Additional observations from a re-analysis of the deposited data

Results flagged for a closer look

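Of 133 combinations of a member and a group, 4 held a tumor far from the rest by Dixon's criterion, where chance flags about 1 in 20. CDKN1A was 44.0 FPKM in replicate 5 of vehicle at 1 h, with the other 4 at 60.6 to 64.4. MDM2 was 195 FPKM in replicate 5 of 200 mg/kg at 1 h, above 166 to 167 in the others, and 199 in replicate 3 of vehicle at 24 h, above 159 to 163. SETD2 was 26.6 FPKM in replicate 2 of cage group 4 (200 mg/kg, 3-6 h), below 32.7 to 33.5.

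The 3 shallow libraries held members above all 34 vehicle and untreated tumors. SETD2 was 721.6 FPKM in replicate 1 of 30 mg/kg at 24 h, where the other 7 members were at 0, and 77.3 in replicate 5 of 100 mg/kg at 24 h, against at most 36.3 in the controls. MDM2 was 288 FPKM in the latter library (controls to 227), and CDKN2B was 26.6 in replicate 1 of 200 mg/kg at 1 h (controls to 24.4).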

How the results depend on the processing

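No paired analysis was possible because the replicate numbers follow the order of the samples and pair no tumors. No member was called in any comparison under any alternative, with these exceptions. With all 94 libraries 3 members were called at 30 mg/kg and 24 h (CDKN1A, MDM2 and RB1, through the shallow library). Leaving out 1 tumor gave 0 to 1 members at 200 mg/kg and 24 h (CDKN2B). BAP1 stayed the only undetected member with all libraries and with a limit of 0.5 FPKM.

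At 200 mg/kg and 24 h the lists of p53 targets, the RB axis, methionine salvage and other suppressors had 0 calls with all libraries. With untreated tumors as reference they had 5, 2, 5 and 2, with only the groups compared 1, 2, 1 and 0, and without the filter the RB axis had 1. Leaving out 1 tumor gave 1 to 3 calls for p53 targets, 0 to 1 for p53 regulators, 0 to 4 for the RB axis, 0 to 1 for H3K36 methylation and 0 to 2 for other suppressors. The cause was not tested.

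Some differences changed sign, of which only the 24 h trends of SMS and SRM had been called. With untreated tumors as reference those at 200 mg/kg became -0.26 (CDKN2B) and 0.14 (MDM2) at 1 h, -0.35 (CDKN2A) and 0.093 (SETD2) at 3-6 h and -0.11 (MTAP) at 24 h, CDKN2A at 30 mg/kg and 1 h went from -0.77 to 0.055, and the 24 h trends became -0.043 (MTAP) and 0.028 (SETD2). SETD2 at 1 h became 0.018 with all libraries and 0.013 after quantile normalization, and CDKN2A at 3-6 h became -0.00587 after the latter. With all libraries the 24 h trends became 0.24 (CDKN1A), 0.13 (RB1), 0.026 (SMS) and 0.026 (SRM). Leaving out 1 tumor gave, at 200 mg/kg, -0.10 to 0.26 (CDKN2B), -0.072 to 0.069 (CDKN1A) and -0.052 to 0.044 (SETD2) at 1 h, -0.11 to 0.15 (CDKN2A) and -0.062 to 0.022 (SETD2) at 3-6 h, -0.12 to 0.049 (CDKN1A) and -0.054 to 0.078 (SETD2) at 24 h, and for the 24 h trends -0.061 to 0.0028 (CDKN1A) and -0.024 to 0.022 (SETD2). CDKN2A at 200 mg/kg and 24 h ranged from 0.93 to 1.35, and was 2.72 with a pseudocount of 0.1. Depth is unknown, and a low member such as CDKN2A is measured least precisely.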

Other observations

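MDM2 has expressed neighbors on chromosome 12, chosen here after their values were seen. RAP1B, which lies 136 kb away, had a median of 117 FPKM, NUP107 56.7, CPSF6 82.1, FRS2 32.3 and CCT2 186, and CNOT2 1392 kb away had 88.7. In all, 12 of the 24 other genes within 2 Mb of MDM2 had a median of at least 1 FPKM, and 3 were at 0 in every library.

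SETD2 and BAP1 lie on the same arm of chromosome 3. Of the 80 other genes within 2 Mb of SETD2, 49 had a median of at least 1 FPKM, compared with 41 of 66 around BAP1.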
